A study of Mus musculus with 104 samples.

Results

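The comparison described here asks what a Notch ligand and TGF-beta add to macrophages that already receive a sterol. Its 4 libraries were 2 of mouse bone marrow-derived macrophages (BMDMs) given DLL4, TGF-beta and DMHCA together and 2 of BMDMs given DMHCA alone, out of 104 libraries in the series, and they were chosen by their labels, not by any measured value. The cells came from C57BL/6J mice, were cultured for 4 days and were harvested after 24 h of treatment. The same table held 3 more groups used for comparison, each with 2 libraries at 24 h, namely untreated BMDMs, BMDMs given DLL4, and BMDMs given DLL4 plus TGF-beta. Related libraries came from C57BL/6J bone marrow monocytes of 2 days of culture treated for 48 h with desmosterol, alone or with DLL4 plus TGF-beta, and from 4-day BMDMs of Smad4 flox/flox mice, with or without Clec4f-cre +/-, left untreated or given the same 2 signals for 24 h. The closing observations also use C57BL/6J BMDMs of 6 days of culture with 72 h in their titles, cells titled as Kupffer cells from Clec4f-cre/Rosa26iDTR mice given PBS, and cells titled as monocytes from untreated C57BL/6J mice. Neither the doses nor the way DLL4 was presented could be taken from the labels. The labels do not say whether replicate libraries came from separate cultures or animals. The p-values rest on the spread between replicate libraries, pooled over all groups of a table, and this spread may be technical.

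DLL4 is a membrane ligand of Notch receptors. When it binds, the receptor is cleaved, its intracellular domain enters the nucleus and, with the DNA-binding protein RBPJ, turns on targets such as Hes1. TGF-beta binds a receptor kinase complex that phosphorylates SMAD2 and SMAD3, which join SMAD4 at target genes and also induce their own inhibitors, among them Smad7, Skil and Pmepa1. DMHCA is a synthetic sterol ligand of the liver X receptors (LXRs), nuclear receptors that raise cholesterol efflux genes such as Abca1, and desmosterol is a natural sterol intermediate that also activates LXRs. In the liver, sinusoidal endothelial cells display Notch ligands to Kupffer cells, the resident macrophages, whose identity depends on LXR alpha and SMAD4.

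The sequences below show the stretch just upstream of the start site for 4 genes that rose with DLL4 plus TGF-beta on DMHCA. They were chosen after the values were seen, as genes with a match to the core letters bound by RBPJ (TGGGAA), to the SMAD element (CAGAC), or to both, in a RefSeq table of GRCm38.p6 promoters. Each line holds the 250 bases before the annotated start, 5′ to 3′ on the gene's own strand, with matches to either motif in capitals, and a match on the other strand reads there as the reverse complement of its letters. All 4 genes lie on the minus strand, and these stretches are at chr13:34652682-34652931 for Pxdc1, chr9:120068297-120068546 for Cx3cr1, chr3:103738002-103738251 for Olfml3 and chr3:87263525-87263774 for Fcrls.
Pxdc1: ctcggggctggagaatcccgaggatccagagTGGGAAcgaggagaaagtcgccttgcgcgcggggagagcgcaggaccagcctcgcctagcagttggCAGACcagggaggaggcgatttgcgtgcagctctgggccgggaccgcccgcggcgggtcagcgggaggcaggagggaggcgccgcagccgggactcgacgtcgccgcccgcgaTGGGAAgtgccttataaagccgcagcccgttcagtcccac
Cx3cr1: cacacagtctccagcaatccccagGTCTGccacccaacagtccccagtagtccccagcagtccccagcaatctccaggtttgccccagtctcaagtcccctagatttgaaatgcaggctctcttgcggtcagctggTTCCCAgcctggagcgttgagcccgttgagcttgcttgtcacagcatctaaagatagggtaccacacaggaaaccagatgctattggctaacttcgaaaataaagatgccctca
Olfml3: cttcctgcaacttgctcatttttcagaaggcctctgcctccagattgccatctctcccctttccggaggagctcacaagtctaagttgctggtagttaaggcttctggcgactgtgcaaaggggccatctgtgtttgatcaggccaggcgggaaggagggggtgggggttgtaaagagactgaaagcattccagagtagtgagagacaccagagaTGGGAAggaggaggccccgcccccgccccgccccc
Fcrls: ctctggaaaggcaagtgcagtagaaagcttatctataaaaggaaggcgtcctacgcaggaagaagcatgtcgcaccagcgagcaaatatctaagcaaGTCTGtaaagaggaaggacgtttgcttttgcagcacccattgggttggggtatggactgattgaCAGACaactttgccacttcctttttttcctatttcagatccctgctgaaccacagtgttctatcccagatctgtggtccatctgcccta
Pxdc1 holds 2 matches to the RBPJ letters and 1 to the SMAD letters, Cx3cr1 holds 1 of each, Olfml3 holds 1 to the RBPJ letters, and Fcrls holds 2 to the SMAD letters. Such short words are common. The RBPJ letters stood in 21% of the 18062 promoters of the table, in 19.9% of the 8367 promoters of genes tested, in 23.5% of the 637 promoters of genes that rose and in 20.3% of the 773 of genes that fell. For the SMAD letters the shares in the same order were 40.9%, 40.1%, 42.7% and 41.7%. A match describes the sequence only.

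Expression was deposited as TPM, a level corrected for gene length and library size. The deposited lengths give back whole reads, 7830287 and 8303104 for DMHCA alone and between 11009622 and 15083879 for the 3 agents together. A gene was called changed when limma's moderated test on log2(TPM + 1) gave a Benjamini-Hochberg adjusted p under 0.05 over all genes tested and the difference was at least 2-fold. The added 1 TPM understates the change of genes with low levels.

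The DMHCA-alone libraries stood apart from the other 24 h groups in ways that bear on many results below. The summed TPM of 12 neutrophil genes was 314.9 and 329.2 with DMHCA alone, against 2300 to 2830 in untreated BMDMs, 3884 to 4169 with DLL4 plus TGF-beta and 4168 to 4394 with all 3 agents, and the neutrophil surface marker Ly6g was listed at 0 in both DMHCA-alone libraries. A list of 10 stromal cell genes summed to 3.65 and 6.14 TPM with DMHCA alone and to between 18.2 and 33.4 TPM elsewhere. A list of 8 macrophage markers summed to 12881 and 13416 TPM with DMHCA alone and to between 20404 and 28704 TPM in the other groups. This sum does not stand for each marker. With all 3 agents 2 of the 8 were called higher than with DMHCA alone, against 7.98% of all genes tested, and 6 were not called (median 0.64). In bulk RNA, fewer cells of a type and less RNA per cell cannot be told apart. DMHCA alone was the lowest of the 5 groups at 24 h for 84.7% of the genes that rose and the highest for 92.8% of those that fell. Over all tested genes it was lowest for 29.5% and highest for 41.6%. The called genes were picked by their difference from DMHCA alone, which by itself pushes that group to an extreme. The shares over all genes are therefore no like baseline, and the shares among called genes are a description only. What set these 2 libraries apart, the sterol or a property of the cultures, cannot be told apart, since DMHCA alone has no other libraries here.

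Adding DLL4 plus TGF-beta to DMHCA changed 1891 of 10908 tested genes, or 17.3%. Of these, 871 rose (7.98% of genes tested) and 1020 fell (9.35%), with a median difference of -0.07 on the log2 scale over all genes. With limma-voom on the recovered reads the balance turned, to 1187 higher and 1059 lower. The 15 genes that rose most included Pmepa1, a feedback gene of TGF-beta, the Notch target Hes1, the matrix proteases Mmp14 and Mmp13, the microglia-type genes Tmem119 and Fcrls, and also Cxcl14 and the neutrophil granule gene Ngp. The 15 that fell most included the chemokines Ccl2, Ccl7 and Ccl9. A change of at least 4-fold was seen for 258 genes that rose and 192 that fell.

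**Figure D1:**
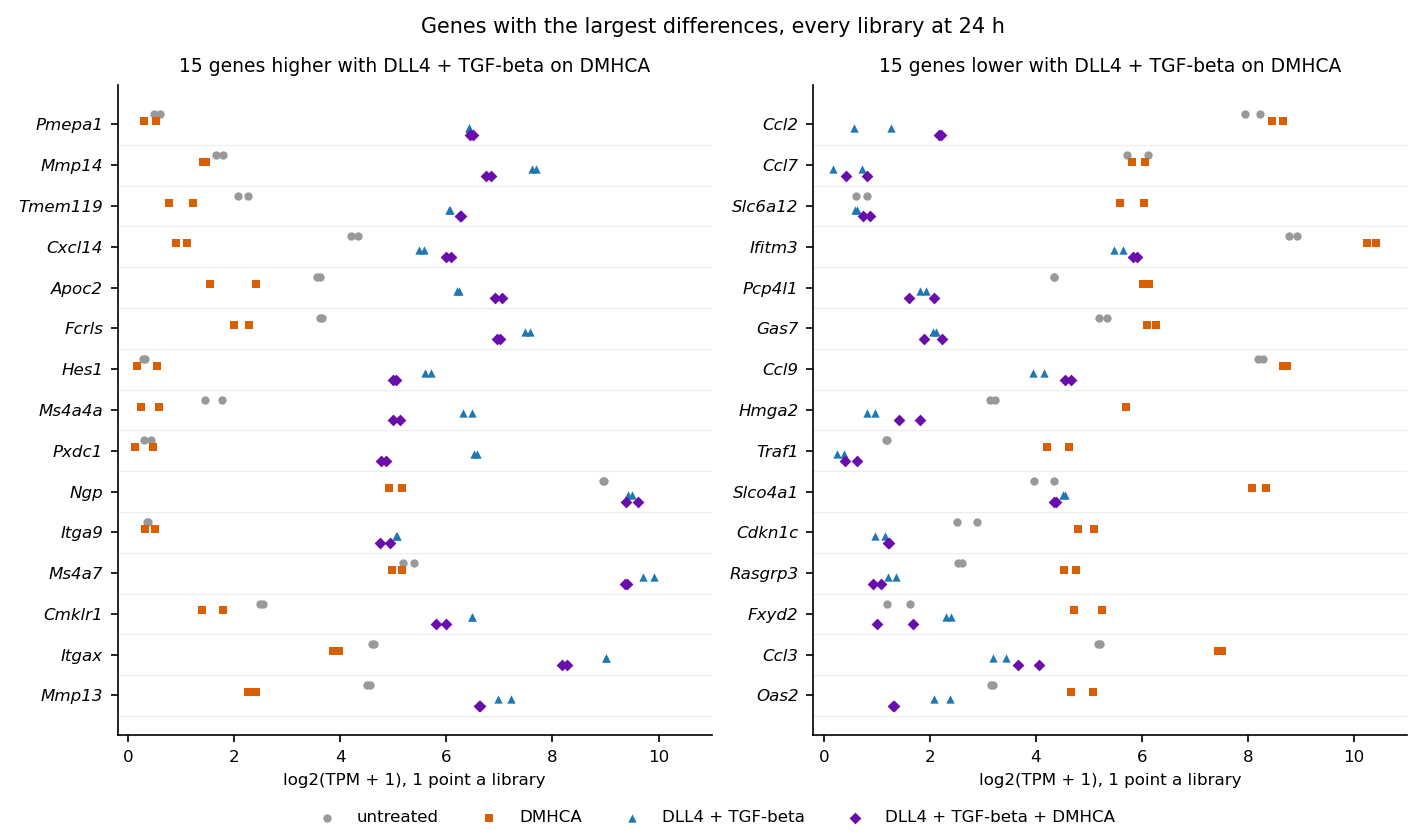
Each point is the log2(TPM + 1) of 1 library at 24 h for the 15 genes with the largest rise (left) and the 15 with the largest fall (right) among genes passing the naming rule; colors and shapes mark the 4 treatments. The rule kept only genes whose purple diamonds (3 agents) and orange squares (DMHCA alone) do not overlap, and the blue triangles (DLL4 plus TGF-beta without the sterol) lie near the diamonds for most.

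Targets and feedback genes of TGF-beta formed a group in which 13 of 22 tested members rose, with a median difference of 1.29. Pmepa1, a membrane protein that sequesters SMADs (chr2:173224465-173276533 on mm10), was at 0.433 and 0.23 TPM with DMHCA alone and at 89.4 and 86.2 TPM with all 3 agents. Both DMHCA libraries were near 0 and the groups were far apart, a log2 difference of 6.06 ± 0.11 (SE, adjusted p = 9.9e-14). Smad7, the inhibitory SMAD, went from 3.83 and 3.36 TPM to 33.4 and 29.4 TPM (2.82 ± 0.08). Spsb1, an adaptor of a ubiquitin ligase, went from 1.55 and 1.36 TPM to 22.8 and 20.9 TPM (3.22 ± 0.1). All 3 genes kept their groups apart, and in BMDMs without the sterol DLL4 plus TGF-beta raised them as well, by 5.88, 2.36 and 3.69. Skil and Ski, corepressors of SMADs, rose by 1.92 and 1.24, and Tgfbi, a secreted matrix protein, rose by 1.58 from 356 and 349 TPM to 1082 and 1032 TPM.

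Other members of that list were low in the DMHCA-alone libraries. Ctgf, a secreted matricellular protein, was at 1.43 and 0.868 TPM with DMHCA alone, 24.4 and 26.4 TPM with all 3 agents, and already 17.2 and 11.1 TPM in untreated cells. Cyr61, a related matricellular protein, was at 0.081 and 0.429 TPM, then 4.78 and 4.3 TPM, with 4.06 and 3.03 TPM in untreated cells. Their rises of 3.63 and 2.16 exceeded the response without the sterol by 3.07 and 1.71 (difference test, adjusted p = 6.6e-07 and 8.9e-05). Over the alternative settings the rise of Cyr61, near 0 with DMHCA alone, ranged from 1.67 to 4.35. The stromal sum given above was low in the same libraries, and its part in these differences was not tested.

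Among ligands, receptors and SMADs of the TGF-beta and BMP family, 5 of 20 tested genes rose and the median difference was 0.41. Tgfbr1, the type I receptor kinase, was at 22.4 and 23.4 TPM with DMHCA alone and at 330.7 and 331.6 TPM with all 3 agents. The libraries of each group were nearly equal and the groups far apart (3.8 ± 0.06, adjusted p = 4.4e-14). DLL4 alone raised Tgfbr1 by 1.95 in cells without the sterol, and TGF-beta on top of DLL4 raised it by another 1.28. Acvrl1, Bmpr2, Inhba and Smurf2 rose by between 1.01 and 1.64. The value for Smurf2, a ubiquitin ligase that targets SMADs and receptors, was 1.01 and became 0.99, short of a call, without DMHCA replicate 1. Tgfbr2, at 31.5 and 33.1 TPM against 54.9 and 53.6 TPM, did not reach 2-fold (0.73 ± 0.06), nor did Tgfb1 (0.58 ± 0.08).

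Of 8 tested Notch targets 4 rose and 1 fell, with a median difference of 0.91. Hes1, the transcriptional repressor that is the best known Notch target (chr16:30065357-30067796 on mm10), was at 0.452 and 0.12 TPM with DMHCA alone and at 30.8 and 31.9 TPM with all 3 agents. The groups did not overlap (4.67 ± 0.14, adjusted p = 5.6e-12). Without the sterol DLL4 alone took Hes1 to 10.2 and 9.09 TPM and TGF-beta on DLL4 to 47.6 and 51.3 TPM, so both steps passed the test. Nrarp, a feedback inhibitor of Notch, was at 0 and 0.202 TPM and then 2.34 and 2.1 TPM (1.55 ± 0.19). Dtx4, a ubiquitin ligase of the pathway, went from 17.9 and 17.5 TPM to 111.1 and 98.8 TPM (2.5 ± 0.06). Rbpj itself fell, from 54.5 and 59.8 TPM to 23.5 and 23.4 TPM (-1.25 ± 0.09). Among receptors and processing factors, 5 of 19 rose and 1 fell. The receptors Notch1 and Notch4 rose by 1.89 and 2.78, and Adam10, the protease that makes the first cut in the bound receptor, rose by 1.49. Notch2, at 37.4 and 38.4 TPM against 36.8 and 32.7 TPM, did not pass the test.

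Of 13 tested genes best known from microglia, the macrophages of brain, 9 rose on DMHCA and 4 were not called, and the median difference was 2.21. Without the sterol 9 rose as well, against 5.45% of all genes tested, with a median of 2.01. Tmem119 was at 0.708 and 1.34 TPM with DMHCA alone and at 76 and 75.7 TPM with all 3 agents. The 2 groups were far apart (5.27 ± 0.16), and in cells without the sterol TGF-beta on DLL4 raised it by 3.82, while its log2 difference with DLL4 alone was 0.08. Fcrls, an Fc receptor-like protein, went from 3.87 and 2.97 TPM to 127.9 and 123.2 TPM (4.85 ± 0.1). P2ry12 and P2ry13, receptors for extracellular nucleotides, rose by 3.46 and 3.59. Olfml3, a secreted glycoprotein, went from 10.8 and 12.1 TPM to 142.3 and 135.4 TPM (3.49 ± 0.11). For P2ry12, P2ry13 and Fcrls the step with DLL4 alone passed the test in cells without the sterol (2.68, 3.14 and 2.38). Cx3cr1, the fractalkine receptor, went from 51.3 and 61.7 TPM to 248.1 and 233.1 TPM (2.08 ± 0.11).

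Matrix and adhesion genes followed, with 13 of 23 higher and 1 lower (median 1.34). Mmp14, the membrane-anchored collagenase, was at 1.77 and 1.65 TPM with DMHCA alone and at 113.5 and 106.2 TPM with all 3 agents (5.36 ± 0.07, adjusted p = 3.6e-15). Mmp13 went from 3.8 and 4.29 TPM to 96.7 and 97.6 TPM (4.28 ± 0.09). Itga9, an integrin chain, went from 0.421 and 0.249 TPM to 29.5 and 25.8 TPM (4.42 ± 0.08). For Itga9 the DLL4 step alone accounted for a called difference of 4.2 in cells without the sterol, while TGF-beta on DLL4 gave 0.49. Integrin chains Itgax, Itgal and Itgb5 rose by 4.3, 3.42 and 3.55. Icam1, an adhesion ligand, was the member that fell, from 78.6 TPM in both libraries to 33.2 and 36.5 TPM.

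The remaining genes with the largest rises stood outside these lists. Ms4a4a and Ms4a7, tetraspan membrane proteins of macrophages, went from 0.496 and 0.176 TPM to 30.9 and 34 TPM, and from 30.3 and 35 TPM to 658.9 and 677.8 TPM. Both groups of each gene were apart, by 4.66 ± 0.16 and 4.32 ± 0.08. Cmklr1, the receptor of chemerin, went from 1.61 and 2.44 TPM to 62.5 and 54.6 TPM (4.31 ± 0.11). Pxdc1, a gene of little known function, went from 0.088 and 0.372 TPM to 28.2 and 26.2 TPM (4.53 ± 0.16). Its level without the sterol was higher, 93.9 and 91.2 TPM, and its response was smaller on DMHCA by 1.66 (adjusted p = 1.0e-04), a call lost when recovered reads were tested with limma-voom. Apoc2 reads overlap those of the readthrough gene Gm44805 and cannot be assigned with certainty.

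Ccl2 and Ccl7, chemokines that recruit monocytes, fell furthest of the 15 genes named for a fall. Ccl2, the main ligand of CCR2 (chr11:82035577-82037452 on mm10), was at 401.5 and 351.5 TPM with DMHCA alone and at 3.64 and 3.52 TPM with all 3 agents. Its groups did not overlap (-6.36 ± 0.25, adjusted p = 1.1e-10), and the response without the sterol was of similar size, -7.17, with no difference called. Ccl7, another CCR2 ligand, went from 65.4 and 55.2 TPM to 0.344 and 0.771 TPM (-5.31 ± 0.3). Ccl9 went from 405 and 424.2 TPM to 22.4 and 24.2 TPM (-4.1 ± 0.07). In cells without the sterol, DLL4 alone lowered Ccl2 and Ccl7 by 3.12 and 2.99 on the log2 scale, and TGF-beta on DLL4 lowered all 3. Of 18 chemokines and receptors tested, 9 rose and 6 fell. The risers included Cxcl16, a membrane-bound chemokine, from 123.1 and 129 TPM to 440.4 and 441.4 TPM, Cxcr4, by 2.68, and Ccr1, by 3.72. Cxcl14 rose by 5.03, from 1.16 and 0.856 TPM to 66.5 and 62.5 TPM, with 17.3 and 19.1 TPM in untreated cells.

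Other genes with large falls included 2 kinds, by their level in untreated cells. Ifitm3, an interferon-inducible membrane protein, went from 1219 and 1370 TPM with DMHCA alone to 58.9 and 56.1 TPM (-4.47 ± 0.11), and untreated cells held 436.3 and 484.5 TPM. Gas7, a cytoskeletal protein, went from 67.1 and 75.6 TPM to 3.68 and 2.73 TPM (-4.11 ± 0.12), and untreated cells held 39.5 and 35.5 TPM. With all 3 agents both had values below those of untreated cells. Slc6a12, a betaine transporter, went from 47.2 and 64.9 TPM to 0.823 and 0.673 TPM (-5.01 ± 0.21), and untreated cells held 0.53 and 0.755 TPM. Slco4a1, an organic anion transporter, went from 268.3 and 324.2 TPM to 19.7 and 19.2 TPM (-3.86 ± 0.17), and untreated cells held 19.2 and 14.7 TPM. These transporters were high in the DMHCA-alone libraries and back at the untreated level with all 3 agents. Hmga2, Traf1, Rasgrp3 and Fxyd2 were highest with DMHCA alone too, and they are not sorted into either kind here.

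**Figure D2:**
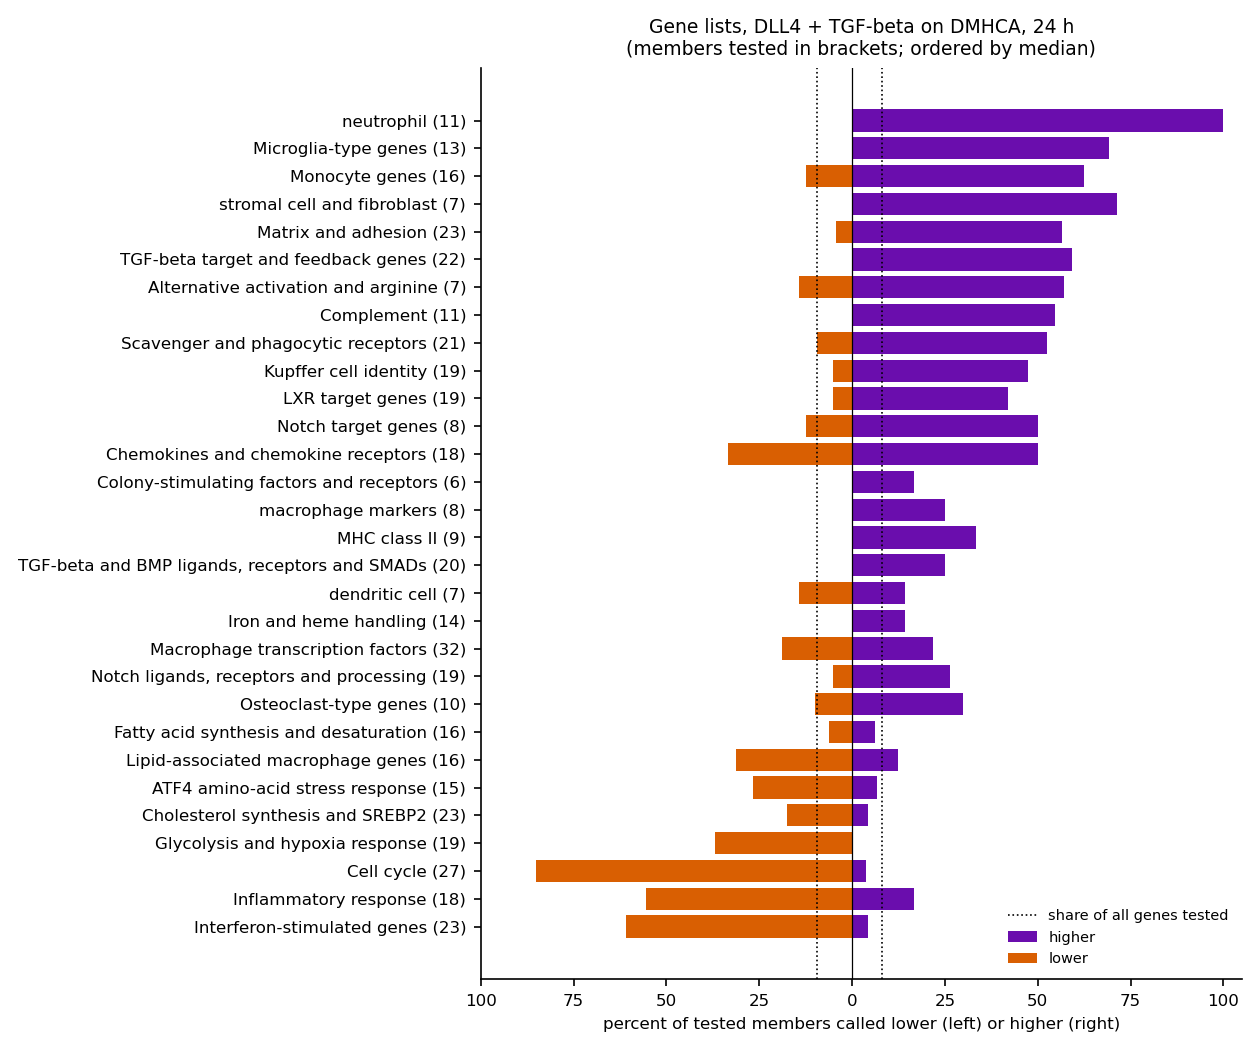
Percent of the tested members of each gene list that were called lower (left, orange) or higher (right, purple) with DLL4 plus TGF-beta on DMHCA, ordered by the list's median difference, with members tested in brackets. Dotted lines mark the shares over all genes tested, 9.35% lower and 7.98% higher; neutrophil, microglia-type and monocyte genes stand at the top, and interferon, inflammatory and cell cycle genes at the bottom.

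Kupffer cell identity genes moved in part. Of 19 tested, 9 rose and 1 fell (median 0.99). Without the sterol 5 rose and 3 fell (median 0.13), against 5.45% and 4.26% of all genes tested. The difference of the responses with and without DMHCA was called higher for 8 and lower for 2, against 2.82% and 3.72% of all genes tested. In the marrow monocytes on desmosterol 5 of 17 rose and 7 fell (median -0.63), against 10.7% and 17.7% of all genes tested there. Il18bp, the secreted inhibitor of interleukin 18, was at 2.93 and 3.11 TPM with DMHCA alone, 21.2 and 23.6 TPM with DLL4 plus TGF-beta, and 53.4 and 55.1 TPM with all 3 agents, its highest level at 24 h. Its rise on DMHCA was 3.78 ± 0.11. Cd38, an enzyme that consumes NAD, went from 0.326 and 0.346 TPM to 9.5 and 8.16 TPM (2.88 ± 0.11), against 2.38 and 2.89 TPM with DLL4 plus TGF-beta only. Slc40a1, the iron exporter ferroportin, went from 20 and 18.5 TPM to 281.4 and 267.3 TPM (3.77 ± 0.05), but DLL4 alone had given 683.8 and 677.8 TPM. Cd5l, Hmox1 and Fabp7 rose by 1.85, 1.75 and 1.75 from DMHCA-alone levels below untreated, and with all 3 agents Cd5l was at 63 and 70.1 TPM against 61.5 and 67 TPM untreated. Folr2 fell by 1.44 on the log2 scale. Defining markers of Kupffer cells were near 0 in these cultures: with all 3 agents Clec4f was at 0.305 and 0.205 TPM, Vsig4 at 0.576 and 0.086 TPM, and Timd4 was listed at 0.

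Both groups of the comparison held the LXR ligand. Of 19 LXR targets tested, 8 rose and 1 fell with DLL4 plus TGF-beta (median 0.94). Without the sterol the counts were the same, 8 and 1 (median 0.76), but members did not all respond alike. The difference of the responses was called higher for 6 of the 19 and lower for 4, against 2.82% and 3.72% of all genes tested. In the marrow monocytes on desmosterol 2 of 17 rose and 6 fell (median -0.31), against 10.7% and 17.7% of all genes tested there. Abca1, which exports cholesterol, was at 4.04 and 3.67 TPM in untreated cells, 112 and 119.9 TPM with DMHCA, 33.2 and 30.5 TPM with DLL4 plus TGF-beta, and 347.1 and 325.4 TPM with all 3 agents. The rise on DMHCA was 1.53 ± 0.11, smaller on the log2 scale than the 2.76 without it by 1.23 (adjusted p = 6.3e-05). Mylip, a ubiquitin ligase induced by LXRs, went from 38.6 and 36.2 TPM to 162 ± 1.41 TPM (SD, n = 2; fitted difference 2.09 ± 0.08), close to its rise of 2.23 without the sterol (difference -0.14 ± 0.11, adjusted p = 0.34). Apoe, the lipoprotein that accepts exported cholesterol, went from 645.6 and 626.5 TPM to 7085 and 7487 TPM (3.52 ± 0.06), more than the 1.91 without the sterol (difference 1.6 ± 0.08). Untreated cells held 1106 and 1209 TPM of Apoe, so DMHCA alone was the lowest group. Mertk, a receptor for apoptotic cells, rose by 3.77.

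Other LXR targets did not reach 2-fold. Abcg1, a second cholesterol exporter, was at 221.5 and 233.5 TPM with DMHCA and at 340.2 and 327.8 TPM with all 3 agents (0.55 ± 0.05). Srebf1, the regulator of fatty acid synthesis, was at 147.4 and 151.3 TPM and at 143 and 131.7 TPM (-0.12 ± 0.08, adjusted p = 0.17). Scd2, a fatty acid desaturase, was at 320.8 and 312.7 TPM and at 390.5 and 377.5 TPM (0.28 ± 0.06). All 3 had lower values in every 24 h library without DMHCA. Nr1h3, which encodes LXR alpha, was at 12.8 TPM in both DMHCA-alone libraries and at 25.5 and 27 TPM with all 3 agents, just under the 2-fold limit (0.99 ± 0.1). Fads2, another desaturase, fell from 42.5 and 37.2 TPM to 6.71 and 6.72 TPM (-2.4 ± 0.11), the level of untreated cells, 6.88 and 6.29 TPM.

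Some genes of cholesterol synthesis had lower values with DLL4 plus TGF-beta on DMHCA, and not without it. Sqle, squalene epoxidase, was at 43.4 and 40.6 TPM in untreated cells, 32.6 and 32.2 TPM with DMHCA, 44.4 and 43.5 TPM with DLL4 plus TGF-beta, and 11.5 and 11.2 TPM with all 3 agents. The last group stood below every other library at 24 h. The fall on DMHCA was -1.44 ± 0.09 and the response without the sterol 0.07, and their difference was -1.5 ± 0.12 (adjusted p = 1.4e-06). Fdps, farnesyl diphosphate synthase, was at 32.6 and 30.8 TPM with DMHCA, 43.2 and 47.1 TPM with DLL4 plus TGF-beta, and 15.3 and 17.7 TPM with all 3 agents (difference of responses -1.59 ± 0.14). Msmo1, a sterol methyl oxidase, was at 59 and 54.9 TPM, 72 and 84.7 TPM, and 27.6 and 29.7 TPM in the same order (-1.62 ± 0.19). Both again had their lowest values in the 2 libraries with all 3 agents, though on DMHCA alone as baseline their differences of -0.9 and -0.96 were short of 2-fold.

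Across the 23 tested genes of cholesterol synthesis and its regulator SREBP2, 4 fell and 1 rose on DMHCA, with a median of -0.47. Without the sterol 1 rose, against 5.45% of all genes tested, and the median was 0.41. The difference of the responses was called lower for 9 of the 23 (3.72% of all genes tested), with a median of -0.84, and these included Mvd and Acat2 by -1.16 and -1.11, the latter not called with quantile normalization. Not every step took part. Fdft1, squalene synthase, rose by 1.14, from 36.3 and 33.1 TPM to 80.8 and 75.1 TPM.

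**Figure D3:**
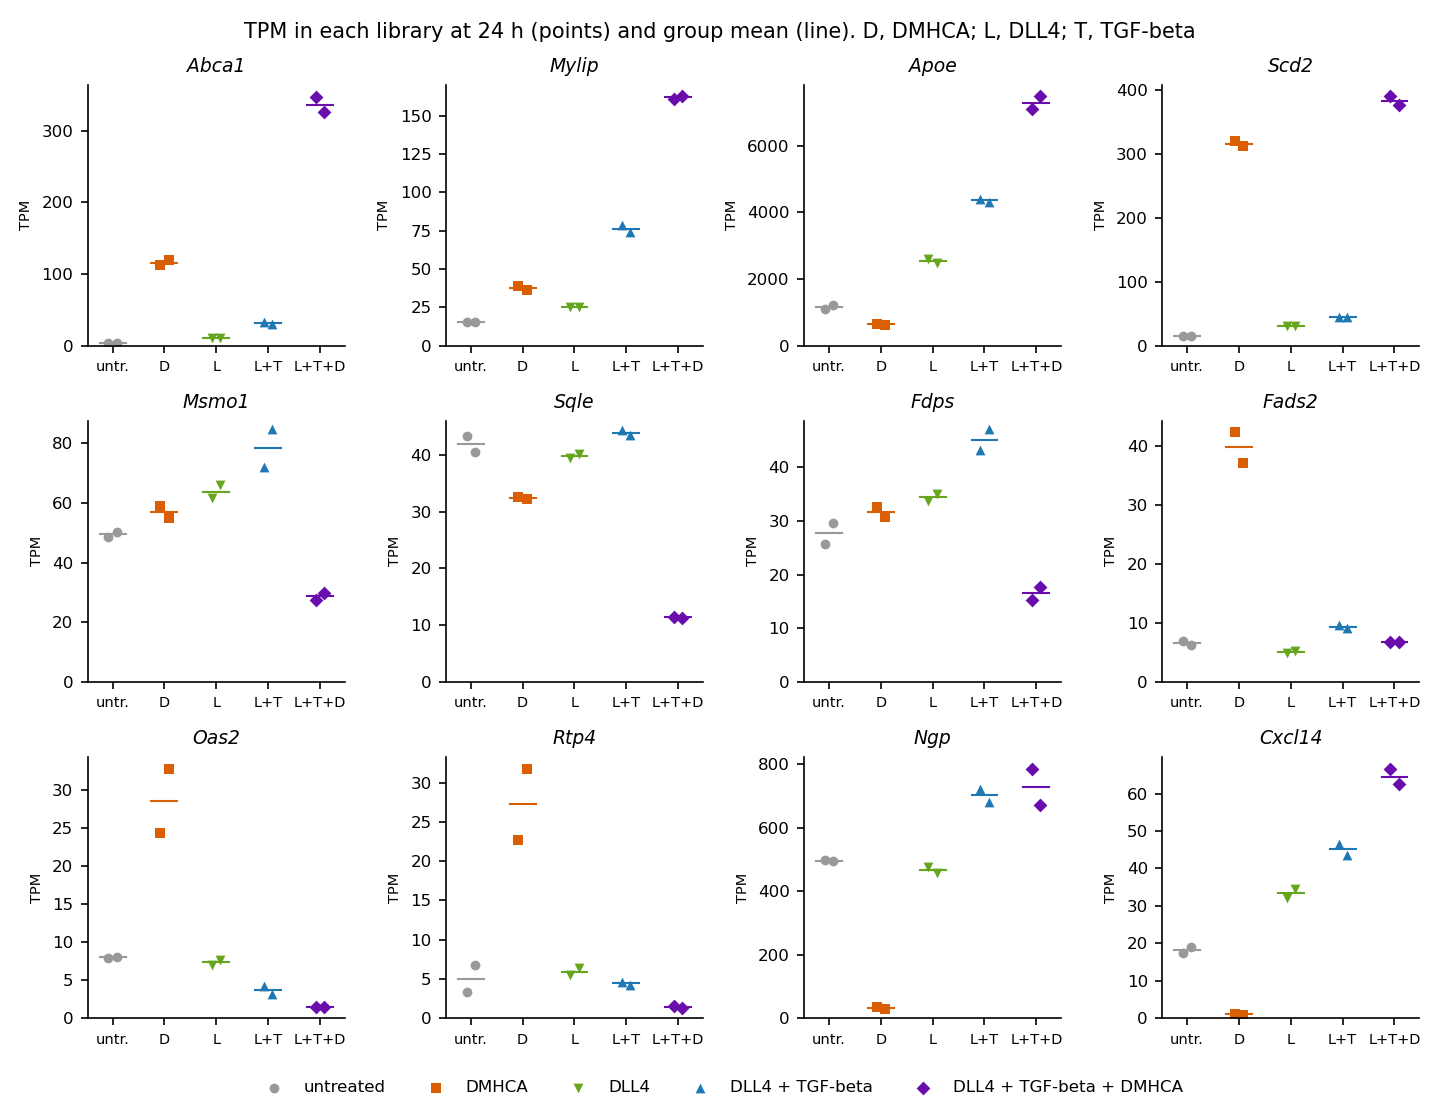
TPM in each library at 24 h (points) and the mean of each group (line) for 12 genes in 5 groups, where D is DMHCA, L is DLL4 and T is TGF-beta; each panel has its own linear axis from 0. Abca1 and Mylip are highest with all 3 agents, Msmo1, Sqle and Fdps are lowest with them, and Oas2, Rtp4, Ngp and Cxcl14 stand apart in the DMHCA-alone group.

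Of 11 complement genes 6 rose on DMHCA and 5 were not called, against 3 that rose and 2 that fell without the sterol, and 4 that rose and 5 that fell in the marrow monocytes on desmosterol. C1qa, C1qb and C1qc, the chains of C1q, rose by 2.87, 2.01 and 2.59, and C1qb went from 540.1 and 484.6 TPM to 2068 and 2066 TPM. DLL4 alone had raised all 3 in cells without the sterol, by 2.61, 1.88 and 1.97. Of 21 scavenger and phagocytic receptors 11 rose and 2 fell on DMHCA, and 5 rose and 3 fell without it. In the marrow monocytes 4 of 19 rose and 10 fell. Among all genes tested, 10.7% rose and 17.7% fell in the monocytes, and 5.45% rose and 4.26% fell without the sterol. Axl, a receptor tyrosine kinase for apoptotic cells, rose by 1.58 from 19.8 and 21.5 TPM to 65.9 and 61.4 TPM, and Cd14, the lipopolysaccharide coreceptor, fell from 849.5 and 914.1 TPM to 113.2 and 125.4 TPM (-2.88 ± 0.06). Msr1 and Cd36, scavenger receptors for modified lipoproteins, rose by 1.87 and 1.19 from DMHCA-alone levels below untreated.

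Of 9 tested MHC class II genes, 3 rose on DMHCA and 9 without it, and the difference of the responses was called lower for 5. Over all genes tested those shares were 7.98%, 5.45% and 3.72%. H2-Ab1, a class II beta chain, was at 22 and 23 TPM in untreated cells, 141.3 and 150.7 TPM with DLL4 plus TGF-beta, 70.3 and 70.8 TPM with DMHCA, and 93.3 and 97.5 TPM with all 3 agents. On DMHCA its difference was 0.43 ± 0.28 (adjusted p = 0.19), against 2.64 without it. Cd74, the invariant chain, was at 334.5 and 315.2 TPM with DMHCA and at 247.3 and 229.2 TPM with all 3 agents (-0.45 ± 0.28).

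Among 32 macrophage transcription factors 7 rose and 6 fell. Runx3 rose most, from 8.03 and 8.21 TPM to 71.8 and 62.4 TPM (2.9 ± 0.1), and Cebpa rose by 1.94. Pparg, the fatty acid receptor, fell from 38.5 and 35.3 TPM to 4.43 and 4.22 TPM (-2.83 ± 0.1), and Klf4 fell from 29.7 and 27.4 TPM to 3.21 and 3.63 TPM (-2.74 ± 0.19). Irf8, which directs monocyte development, rose by 1.25. Of 10 osteoclast-type genes 3 rose and 1 fell. Acp5, tartrate-resistant acid phosphatase, went from 9.45 and 6.69 TPM to 143.2 and 135.7 TPM (3.97 ± 0.14). Dcstamp and Ocstamp, partner proteins of cell fusion, went opposite ways, by -3.34 and 2.24.

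Proliferation genes fell. Of 27 cell cycle genes 23 fell and 1 rose, with a median of -1.68. Mki67 went from 166.8 and 171.5 TPM to 55.6 and 45.4 TPM (-1.73 ± 0.11), and Top2a, the DNA topoisomerase of dividing cells, from 193.2 and 193.5 TPM to 62.9 and 57 TPM (-1.67 ± 0.1). Ccnd1, the cyclin of early G1, fell from 470.6 and 461.1 TPM to 99.1 and 100.1 TPM (-2.21 ± 0.11). The exception was Ccnd2, which rose from 7.02 and 6.22 TPM to 25.7 and 23.1 TPM. Without the sterol 12 of the 27 fell, against 4.26% of all genes tested, with a median of -0.98. In the Smad4 flox/flox BMDMs, also without a sterol, 25 of 27 fell, against 10% of all genes tested, with a median of -1.78. The difference of the responses with and without DMHCA was called lower for 7, among them Cdc20 and Birc5, and higher for Ccnd2. Over all genes tested it was called lower for 3.72%. Of 19 glycolysis and hypoxia genes 7 fell, including Ldha (-1.37) and Pkm (-1.42). Among lipid-associated macrophage genes 5 of 16 fell and 2 rose. Spp1, osteopontin, fell from 7334 and 8578 TPM to 943.9 and 1131 TPM (-2.94 ± 0.09), and Lpl fell by 1.19 on the log2 scale.

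Interferon-stimulated genes were high with DMHCA alone. Of 23 tested, 14 fell and 1 rose, with a median of -2.23. Oas2, an antiviral synthetase, was at 7.9 and 8.09 TPM in untreated cells, 24.4 and 32.8 TPM with DMHCA, and 1.48 and 1.49 TPM with all 3 agents (-3.56 ± 0.17). Usp18, which dampens interferon receptor signals, went from 10.8 and 18.7 TPM to 0.933 and 0.836 TPM, and untreated cells held 2.01 and 2.71 TPM. The DMHCA-alone libraries were the highest of the 5 groups for both genes. Without the sterol 5 of the 23 rose and 1 fell, against 5.45% and 4.26% of all genes tested. The difference of the responses was called lower for 20, against 3.72% of all genes tested. In the Smad4 flox/flox BMDMs, however, the same signals without a sterol lowered 13 of 25 and raised 4, with a median of -1.03. In the marrow monocytes on desmosterol 12 of 27 rose and 4 fell. Over all genes tested, 6.94% rose and 10% fell in the flox/flox cells, and 10.7% rose and 17.7% fell in the monocytes. Inflammatory genes were less one-sided in those cells, with 3 of 13 higher and 4 lower in flox/flox BMDMs, and 5 of 14 higher and 4 lower in the monocytes. On DMHCA 10 of 18 inflammatory genes fell and 3 rose. Their difference of responses was called lower for 8 and higher for 1, against 3.72% and 2.82% of all genes tested. Tnf fell from 62.9 and 68.7 TPM to 14.1 and 16.7 TPM, against 15.1 and 17.8 TPM in untreated cells, and Ccl3 fell from 180.5 and 172.4 TPM to 11.7 and 15.6 TPM, against 36.2 and 35.2 TPM. Il1b went the other way, from 0.122 and 1.42 TPM to 5.24 and 6.68 TPM.

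Neutrophil genes were low with DMHCA alone, as their sum above shows. All 11 tested neutrophil genes rose, by a median of 3.49. Ngp, a granule protein, was at 34.9 and 29.3 TPM with DMHCA alone, 785.1 and 670 TPM with all 3 agents, and 498 and 494.8 TPM in untreated cells (4.46 ± 0.08). Mpo, myeloperoxidase, was at 4.58 and 5.27 TPM, 49.5 and 50.1 TPM, and 47.9 and 45.6 TPM in the same order. With all 3 agents these genes thus stood near or above the untreated level. Of 16 monocyte genes 10 rose and 2 fell, and 2 of the risers, S100a8 and S100a9, are also in the neutrophil list. Without the sterol 2 of the 16 rose and 4 fell (median -0.11), against 5.45% and 4.26% of all genes tested. The difference of the responses was called higher for 12, against 2.82% of all genes tested. Ccr2, the receptor for CCL2, was at 21.2 and 19.4 TPM with DMHCA alone, 95.7 and 102.4 TPM with all 3 agents and 118.8 and 111.8 TPM untreated. Chil3 was at 23 and 22.6 TPM, then 156 and 156.7 TPM, against 162.1 and 184.8 TPM untreated. The neutrophil sum was also low with DMHCA alone, but with all 3 agents it stood above its untreated level, unlike Ccr2 and Chil3. The part of the neutrophil sum in these rises was not tested. Leaving out both DMHCA-alone libraries would leave no comparison.

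The same niche signals were tested in cells without the sterol with libraries that the comparison on DMHCA does not use. There 1060 genes changed (9.72% of genes tested), of which 595 rose (5.45%) and 465 fell (4.26%). Of the 871 genes that rose on DMHCA, 420 (48.2%) also rose without it, which is 70.6% of the latter list. Of the 1020 that fell, 331 (32.5%) also fell without it, or 71.2% of that list, and 2 and 4 genes went the opposite way. Of the 15 genes named as highest risers 14 also rose without the sterol, and the exception was Ngp (0.5). Of the 15 named as largest falls 10 also fell.

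The test of the difference between the responses, which uses the same 8 libraries and so is not independent of either, called 714 genes (6.55%), 308 of them higher on DMHCA (2.82%) and 406 lower (3.72%). With limma-voom on the recovered reads it called 463 higher and 413 lower. It called 249 of the 871 risers and 254 of the 1020 falls. For Hes1 the difference was -0.69 ± 0.19 and for Pmepa1 0.18 ± 0.16, neither called. Among chemokines, Ccl2, Ccl7 and Ccl9 had differences of 0.81 ± 0.36, 0.15 ± 0.43 and 0.09 ± 0.1. Cd207, the lectin langerin, rose without the sterol by 4.06 but was at 18.4 and 18.7 TPM with DMHCA and 20.1 and 22.3 TPM with all 3 agents (0.18 ± 0.17, difference -3.88 ± 0.24). F13a1, a clotting factor subunit of monocytes, fell without the sterol by 2.37 on the log2 scale and was at 2.83 and 2.2 TPM with DMHCA and 5.5 and 5.24 TPM with all 3 agents.

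**Figure D4:**
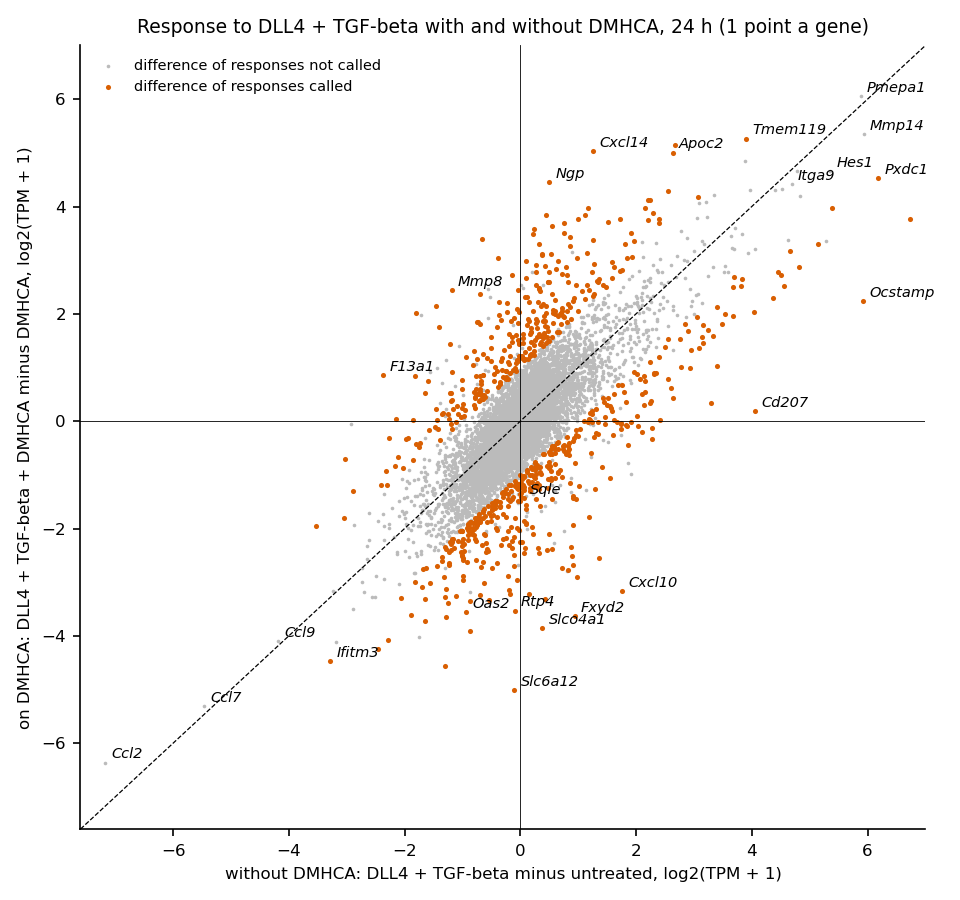
Each point is a tested gene, with the log2(TPM + 1) response to DLL4 plus TGF-beta without DMHCA on the x axis and on DMHCA on the y axis; orange points are the 714 genes whose difference of responses was called, and the dashed line marks equal responses. Pmepa1, Mmp14, Ccl2, Ccl7 and Ccl9 lie near the line at its ends, while Ngp and Cxcl14 lie above it and Slc6a12, Cxcl10 and Sqle below it.

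Separating the 2 signals was possible only in cells without the sterol. DLL4 alone changed 300 genes (2.75%), raising 242 (2.22%) and lowering 58 (0.532%). TGF-beta on DLL4 changed 414 (3.8%), raising 252 (2.31%) and lowering 162 (1.49%). Of the 15 largest risers on DMHCA, 11 rose with DLL4 alone and 9 rose with TGF-beta on DLL4. Pmepa1 and Tmem119 were called in the TGF-beta step (5.48 and 3.82) and not in the DLL4 step (0.4 and 0.08), while Itga9, Mmp13 and Ms4a4a were called in the DLL4 step (4.2, 2.62 and 4.37) and not in the TGF-beta step (0.49, -0.07 and 0.41). These 2 steps share the DLL4 libraries.

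Bone marrow monocytes gave a second test on another sterol, with DLL4 plus TGF-beta added to desmosterol for 48 h. There 2906 genes changed (28.4% of 10234 tested), of which 1095 rose (10.7%) and 1811 fell (17.7%). With quantile normalization the split was 1383 and 1434, and the median over all genes moved from -0.15 to 0.01. Of the genes called on DMHCA and tested in both, 350 of 753 risers (46.5%, 35.9% of the monocyte list) and 597 of 866 falls (68.9%, 33.3% of the monocyte list) went the same way, while 84 and 30 went the opposite way. Pxdc1 went from 0.189 and 0.503 TPM to 355.8 and 358.5 TPM (8.07 ± 0.12), and Itgax from 2.64 and 4.58 TPM to 962.2 and 951.9 TPM (7.73 ± 0.15). Both groups were far apart in each. Ccl2 fell from 162.8 and 167.5 TPM to 0.717 and 0.603 TPM.

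Of 13 microglia-type genes tested in the monocytes, 8 rose and 2 fell (median 2.27), against 10.7% and 17.7% of all genes tested there. Of the 15 largest BMDM risers 14 were tested in the monocytes, where 11 rose and 3 fell. Fcrls went from 36.2 and 34.4 TPM to 0.828 and 0.569 TPM (-4.42 ± 0.1), Tmem119 from 7.09 and 6.52 TPM to 2.02 and 1.51 TPM (-1.5 ± 0.16), and Apoc2 from 31.8 and 33 TPM to 11.7 and 12.7 TPM (-1.34 ± 0.12). MHC class II genes, 3 of 9 higher in BMDMs on DMHCA, rose in all 10 tested in monocytes, with H2-Ab1 going from 74.5 and 80.1 TPM to 5774 and 5886 TPM. Cells, culture, time and sterol all differ between the tables, so these values stand side by side and no difference was tested.

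The Smad4 BMDMs tested how far the response without a sterol depends on the shared SMAD. Smad4 was at 20.4 to 26.5 TPM in the 10 Smad4 flox/flox libraries and at 8.52 to 11.3 TPM in the 10 with Clec4f-cre +/-, lower in every library but not absent. Clec4f is a Kupffer cell gene, and its own level in flox/flox BMDMs was 0.322 and 0.278 TPM untreated and 11.2 and 13.5 TPM with DLL4 plus TGF-beta. The lower Smad4 range includes the untreated Clec4f-cre libraries. The labels do not explain how Cre acts in BMDMs, and no link between Clec4f and Smad4 levels was tested. In flox/flox cells DLL4 plus TGF-beta changed 1741 genes (17% of 10267 tested), raising 713 (6.94%) and lowering 1028 (10%). With Clec4f-cre it changed 743 (7.24%), raising 365 (3.56%) and lowering 378 (3.68%), a near balance that turned to 402 and 308 with quantile normalization. The difference of responses was called for 268 genes (2.61%), upward for 107 of them (1.04%).

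Of the 15 largest risers on DMHCA, 13 rose in flox/flox BMDMs, 12 with Clec4f-cre, and for 10 the rise was called smaller with it. Pmepa1 went from 0.596 and 0.955 TPM to 107.3 and 91.2 TPM in flox/flox cells and from 0.47 and 0.671 TPM to 19.9 and 20.1 TPM with Clec4f-cre (difference -2.08 ± 0.19, adjusted p = 7e-06). Tmem119 reached 94.2 and 90.1 TPM in flox/flox cells and 21.1 and 23.2 TPM with Clec4f-cre (difference -2.75 ± 0.19). Hes1, the Notch target, reached 39 and 37 TPM and 17 and 13.8 TPM (difference -1.48 ± 0.26, adjusted p = 0.0013). Fcrls was not called different (-0.01 ± 0.13), and its levels were higher with Clec4f-cre in both conditions, 1252 and 1216 TPM against 643.7 and 648.3 TPM after treatment. Among genes that fell, Ccl9 ended at 7.26 and 8 TPM in flox/flox cells and at 45 and 46.1 TPM with Clec4f-cre (difference 2.28 ± 0.14). Ccl2 ended near 0 in both, at 0.387 and 1.31 TPM and at 0.564 and 0.753 TPM.

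**Figure D5:**
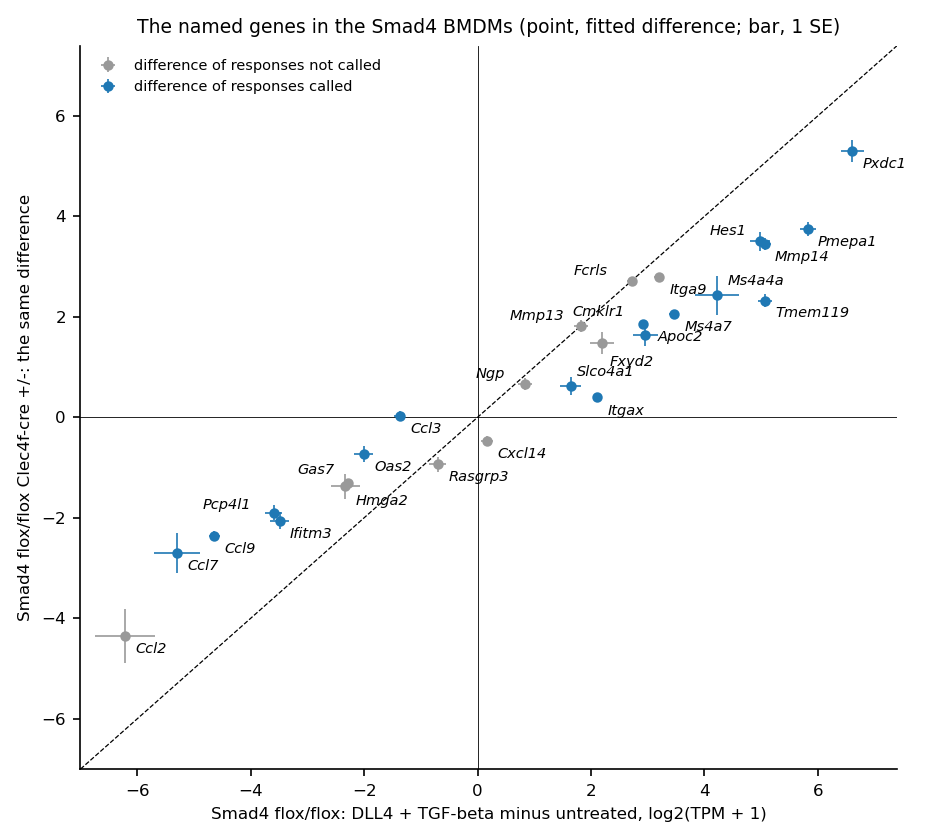
Log2(TPM + 1) response to DLL4 plus TGF-beta in Smad4 flox/flox BMDMs (x axis) and in those with Clec4f-cre +/- (y axis) for the named genes tested there; bars are 1 SE and the dashed line marks equal responses. Pmepa1, Tmem119 and Itgax lie below the line on the right, Ccl9 and Ifitm3 above it on the left, and Fcrls and Mmp13 on it.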

How the data were processed

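The authors deposited TPM per gene for poly(A) RNA-seq libraries prepared, per the labels' protocols, with dUTP strand marking. The submitters' processing notes name STAR, HOMER and mm10, with versions not given in the sources used here. A deposited file header of another table of the series records HOMER counting over exons with genes condensed, and whether strand was used is not stated. TPM times gene length gave whole reads within 0.1 read, so depth could be read back (7830287 to 18633542 reads per BMDM library).

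Genes with at least 4 TPM in at least 2 libraries of a table were tested with limma 3.58.1 in R 4.3.3 on log2(TPM + 1), with all libraries of the table in 1 fit, a mean per group, a trended prior and Benjamini-Hochberg adjustment over all genes tested. A call needed an adjusted p under 0.05 and a 2-fold difference. The difference of responses was a contrast of 4 groups. The code was tested on simulated data. Tables were normalized separately and were tested only within themselves.

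The members of each comparison and the 34 gene lists (554 genes) were chosen with earlier results of these data known. For each direction, the genes named as largest were the first 15 called genes by size of difference whose libraries were fully apart and whose mean reached 10 TPM where it was greater (8 for the difference of responses, with 10 TPM reached in any of its groups). Predicted transcripts and small RNAs were passed over. From each list up to 6 members with the largest differences could be named; further members, named for their role, were chosen after their values were seen. Replicate numbers did not pair libraries. Alternatives were a pseudocount of 0.25, no filter, quantile normalization, limma-voom on recovered reads, a replicate block, only the compared groups, and leaving out each library. No 2 replicate libraries were the same within sampling noise (24 pairs compared). The chi-square per degree of freedom of recovered reads, larger where replicates lie further apart, differed among the 24 h pairs. It was 22.89 for untreated BMDMs, 2.48 with DLL4, 2.67 with DLL4 plus TGF-beta, 1.56 with DMHCA alone and 2.84 with all 3 agents. The untreated pair is the baseline of the response without the sterol, and so enters every difference of responses with and without DMHCA.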

Additional observations from a re-analysis of the deposited data

Results flagged for a closer look

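The response to DLL4 plus TGF-beta differed between cells with and without DMHCA for the genes named here, by limma's test of the difference of the responses. For granule genes the response was higher on DMHCA, by 3.96 for Ngp, 3.63 for Mmp8, 3.4 for Lcn2, 3.35 for Ltf and 3.28 for Camp on the log2 scale. Cxcl14 had a difference of 3.77. F13a1 had one of 3.23, made up of a fall of 2.37 without the sterol and a difference of 0.86 on DMHCA that was short of 2-fold. In each of these 7 genes the DMHCA-alone libraries held the lowest values of the 5 groups at 24 h, and the neutrophil sum was low in the same libraries; its part in the differences was not tested. Rmrp had a difference of 3.82, but it rests on 1 library: the untreated libraries held 29.6 and 1.04 TPM, and without the first the value was 1.87 and was not called.

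The response was smaller, or a fall, on DMHCA for Cxcl10 (-4.92), Slc6a12 (-4.91), Fxyd2 (-4.58), Slco4a1 (-4.24), Cd207 (-3.88), Ocstamp (-3.68), Mcoln3 (-3.45) and Rtp4 (-3.43). Cxcl10, a chemokine induced by interferon, was at 23.1 and 41.7 TPM with DMHCA alone and at 2.08 and 3.14 TPM with all 3 agents. Mcoln3, a cation channel of endosomes, was at 13.5 and 10.7 TPM and then 0.913 and 1.01 TPM. Ocstamp, by contrast, was highest with DLL4 plus TGF-beta, at 106.5 and 104 TPM, and reached 18.9 and 16.8 TPM with all 3 agents.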

How the results depend on the processing

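Under all alternatives run, each total count of called genes stayed within 1.5 times its main value. By direction, limma-voom on recovered reads passed that limit for differences called higher (463 in place of 308) and for falls with DLL4 alone (88 in place of 58). The 1891 genes called on DMHCA became 2199 with a pseudocount of 0.25, 2034 with no filter, 1684 with quantile normalization, 2246 with limma-voom on recovered reads (1187 higher and 1059 lower), 1914 with the compared groups only, and 1867 to 1902 when 1 library was left out. Between 85% and 99.9% of the 1891 calls were kept and none changed sign. The 714 differences of responses ranged from 613 to 876 (with limma-voom, 463 higher and 413 lower), and from 678 to 733 without 1 library. Replicate numbers in the labels did not pair libraries (correlation of deviations -0.04), and a replicate block gave 1889 calls in place of 1891 and 714 in place of 714.

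Of 240 listed or named genes called on DMHCA, 217 were called in all 10 alternatives and 23 were lost in at least 1. Of 154 called differences, 132 were called in all 14 alternatives. Lyz2 was the 1 whose sign turned, from 1.09 to 0 with quantile normalization. The difference for Pxdc1 was lost with limma-voom and that for Tmem119 with quantile normalization. The 2 libraries per group and the low depth of DMHCA alone limit the precision for genes near 1 TPM, and no other DMHCA-alone libraries at 24 h were used here.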

Other observations

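BMDMs of 6 days of culture carried 72 h in their titles, while their treatment fields give 24 h for each agent; they are called the 72 h libraries here. No DMHCA-alone group was used at that time and no test was made. With all 3 agents Il18bp and Cd38, chosen after their values were seen, were at higher levels than at 24 h, and Clec4f was not. Il18bp was at 170.2 and 174.4 TPM with all 3 agents, 145.4 and 141.5 TPM with DLL4 plus TGF-beta and 16.2 and 16.1 TPM untreated. Cd38 was at 32.1 and 31.2 TPM with all 3 agents and at 8.63 and 7.57 TPM with DLL4 plus TGF-beta. Cells titled as control Kupffer cells held 892.6 ± 83 TPM of Il18bp and 274.1 ± 48.2 TPM of Cd38 (SD, n = 3). Clec4f, at 3341 ± 501.1 TPM in those Kupffer cells, was at 0.049 and 0.186 TPM in the 72 h libraries with all 3 agents.

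In the 72 h libraries Abca1 was at 458.3 and 328.7 TPM with all 3 agents and at 59.6 and 64.4 TPM with DLL4 plus TGF-beta. Ngp in the 72 h libraries was lowest with all 3 agents, at 385.6 and 409.8 TPM. It was at 1795 and 1863 TPM with DLL4 plus TGF-beta and at 1124 and 1141 TPM untreated. At 24 h the order was another: Ngp was lowest with DMHCA alone, and with all 3 agents it stood above the untreated level. A part of the sterol in these levels was not tested.

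Of the 15 genes that rose most on DMHCA, 8 had higher values in all 3 Kupffer cell libraries than in all 4 libraries titled as control monocytes, among them Mmp14, Cmklr1 and Pxdc1, and Apoc2 and Ms4a4a had lower values. Of the 15 that fell most, Ifitm3, Gas7 and Ccl9 had lower values in Kupffer cells, and Ccl7, Cdkn1c, Rasgrp3 and Fxyd2 had higher values. Over the 10908 genes tested, 29.5% had higher and 37.2% lower values in all Kupffer cell libraries, so these counts describe the named genes only.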
